A study of Homo sapiens with 8 samples.

Results

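Small nucleolar RNAs and small Cajal body RNAs were followed across 4 hormone treatments of U373 cells, a human astrocytoma line. Members were the probe sets annotated to a single gene whose symbol starts with SNORD, SNORA or SCARNA, so the genes were chosen by symbol, and for a gene with several probe sets the one kept was chosen by its measured mean over the 8 arrays. This gave 192 genes of 18417 in all. They comprise 115 C/D box RNAs (SNORD), 61 H/ACA box RNAs (SNORA) and 16 Cajal body RNAs (SCARNA), taken from 198 probe sets, with 5 genes having several. A further 76 probe sets carried a member's symbol beside other symbols and were not members.

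Cells at about 70% confluence were held for 24 h in medium with 5% serum freed of hormones and were then treated for 12 h. The groups were 10 nM progesterone together with 1 µM RU-486 (the combination), 10 nM progesterone alone, 1 µM RU-486 alone, and vehicle, with 2 biological replicates and so 2 arrays in each. Progesterone acts through its nuclear receptor, and RU-486 (mifepristone) is an antagonist of that receptor and of the glucocorticoid receptor. Their RNA was read on a whole-transcript microarray, 8 arrays in all. All groups share 1 line and 1 time, and some stocks carrying this line's name have been found to derive from another glioblastoma line. The defining markers were in part as the label has it, since GFAP (mean log2 level 7.54), S100B (9.59), VIM (13.4), NES (8.65), SOX2 (12.0) and SLC1A3 (9.12) lay above all 361 olfactory receptor genes, whereas AQP4 (4.19) and ALDH1L1 (6.19) did not pass the background level given below. All 3 neuron markers lay just above that level, RBFOX3 at 6.73, SYP at 6.48 and SNAP25 at 6.59. Of the 3 microglia or leukocyte, 3 endothelium and 3 epithelium markers, 1 of each lay above it (CD68 at 10.6, CDH5 at 8.57 and KRT8 at 7.15), while PTPRC (3.44), AIF1 (4.69), PECAM1 (4.96), VWF (6.14), EPCAM (4.74) and CDH1 (5.20) lay below.

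C/D box RNAs guide 2′-O-methylation of ribosomal RNA in a particle with the methyltransferase fibrillarin (FBL) and NOP56, NOP58 and SNU13. H/ACA box RNAs guide pseudouridylation with dyskerin (DKC1), NHP2, NOP10 and GAR1. Cajal body RNAs use the same chemistry on spliceosomal RNAs and gather in Cajal bodies, and most members of all 3 classes are cut from introns of other genes, their hosts. The proposal to describe these genes came with earlier results of these data in view, so their shifts are described here and support no further statement.

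The values are deposited log2 levels, and the probe sets of different genes cannot be set against each other as amounts. The 95th percentile of the olfactory receptor genes, which serve chiefly in the nose, was taken as the background level and was 6.27. Above it lay 120 of the 192 members, of which 66 were C/D box, 41 H/ACA box and 13 Cajal body RNAs. The other 72 members lay below it, and 40 lay below the olfactory median of 4.66. The brightest probe sets of each class were SNORA71D (mean 13.0), SNORD116-15 (13.0) and SCARNA12 (11.5). Members are short, with a median annotated length of 94 bases, so most rest on few probes, and mature RNAs cannot be told apart from longer precursors or host introns on such an array. Fewer cells of a type and less RNA per cell cannot be told apart either.

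The 2 replicates per group set the precision, and they were not equally close. The SD of the difference between the replicates over all 18417 genes was 0.17 in the combination, 0.35 in progesterone, 0.16 in RU-486 and 0.18 in vehicle. Over the members it was 0.31 in the combination, 0.40 in progesterone, 0.19 in RU-486 and 0.22 in vehicle. Differences above 0.5 between replicates were found in 19 members in the combination (9.90%, against 0.99% of all genes) and 40 in progesterone (20.8%, against 11.8%). They were found in 3 members in RU-486 (1.56%, against 0.69%) and 5 in vehicle (2.60%, against 2.44%). Progesterone replicate 1 held the lowest of the 8 values for 74 members (38.5%, against 15.8% of all genes), progesterone replicate 2 for 37 (19.3%, against 25.4%) and combination replicate 1 for 34 (17.7%, against 14.6%). Combination replicate 1 also held the highest value for 43 members (22.4%, against 26.25% of all genes). Vehicle replicate 1 held it for 41 (21.35%, against 5.15%) and RU-486 replicate 2 for 34 (17.7%, against 6.87%). The comparisons that follow were fitted with limma on all 8 arrays, with p-values adjusted over all 18417 genes by the method of Benjamini and Hochberg and an adjusted threshold of 0.05.

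No member passed that threshold in any of 8 comparisons, and none is therefore said to have changed. Over all genes 0 (0.0%) passed in 7 of the comparisons, and 6 (0.0326%), all higher, passed in the average effect of RU-486. The smallest adjusted limma p among members was 0.0777, for SNORA14B in the combination against progesterone. It was 0.397 for progesterone against vehicle, for SNORA14A, and 0.722 for the average progesterone effect, which sets the 4 arrays with progesterone against the 4 without. No gene of the 18417 had a smaller adjusted p than these members in the 3 comparisons.

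Progesterone-treated cells had lower levels of most members. For progesterone against vehicle, 157 of 192 members had a lower mean, against 48.8% of all genes, and 43 members were lower at an unadjusted p under 0.05 (1 was higher), against 2.45% of all genes lower and 3.68% higher. In 92 members (47.9%) both progesterone arrays lay below both vehicle arrays, against 15.8% of all genes. Outside the SNORD113 to SNORD116 families of near-identical copies this held for 70 of 146 members (47.95%). The median log2 difference was -0.24 for C/D box, -0.14 for H/ACA box and -0.14 for Cajal body RNAs, against 0.0038 for all genes. By class, 100 of 115, 46 of 61 and 11 of 16 members were lower.

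The lower levels were seen in bright and dim members. Of the 120 above background, 106 were lower in progesterone than in vehicle, with a median of -0.25, and of the 72 below background 51 were lower, with a median of -0.10. Among the 66 C/D box RNAs above background, 64 were lower. Without progesterone replicate 1 the C/D box median was -0.12 and the Cajal body median -0.23, and without progesterone replicate 2 they were -0.30 and -0.07. Without vehicle replicate 1 the C/D box median was -0.15. Without progesterone replicate 2, some members passed the adjusted threshold in limma, nearly all lower, and other genes also passed, most of them higher. The lone progesterone array is then assumed to vary like the other groups.

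**Figure D1:**
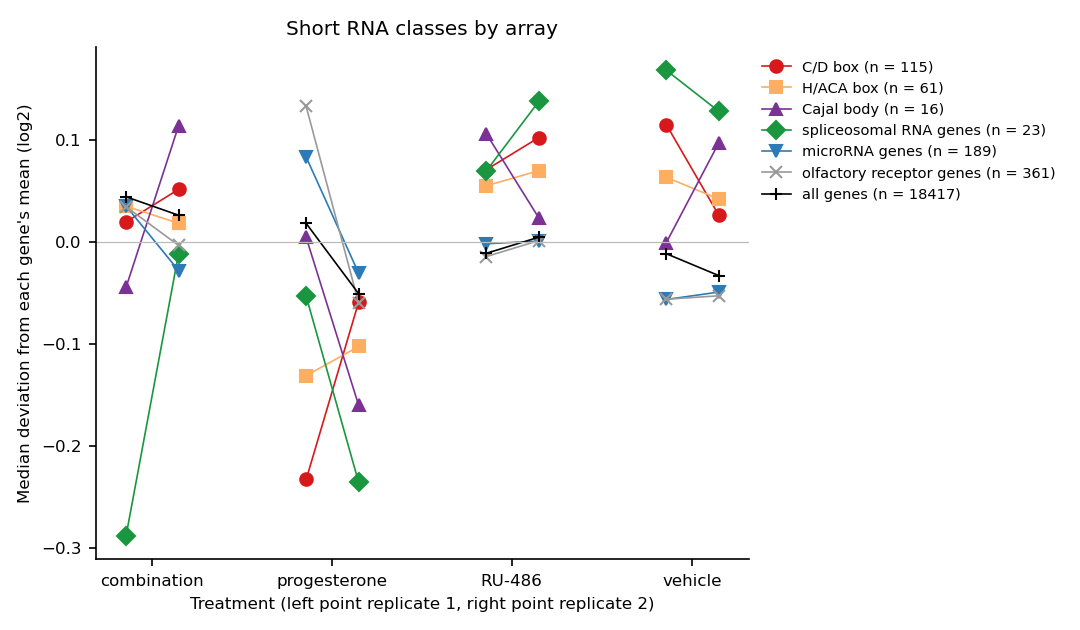
Median deviation (log2) of each class from its genes' own means on the 8 arrays, combination left to vehicle right, each left point replicate 1 and right point replicate 2. The C/D box median is -0.23 and -0.06 on the progesterone arrays, against 0.12 and 0.03 on the vehicle arrays, while the all-gene median stays between -0.05 and 0.04 on all 8 arrays.

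With RU-486 present in both groups, the progesterone difference was smaller. The combination against RU-486 had medians of -0.05, -0.03 and -0.01 for C/D box, H/ACA box and Cajal body RNAs, against 0.04 for all genes. Of the 192 members 108 (56.25%) were lower, against 38.9% of all genes. In 62 members (32.3%) both combination arrays lay below both RU-486 arrays, against 17.1% of all genes, and in 37 (19.3%) they lay above, against 33.3%. At an unadjusted limma p under 0.05, 24 members were lower and 10 higher, against 1.56% and 3.18% of all genes. These arrays are not shared with progesterone against vehicle, and 91 members (47.4%) were lower in both, against 20.9% of all genes. Another 66 (34.4%, against 27.8% of all genes) were lower in progesterone than in vehicle and higher in the combination than in RU-486. Across the 192 members the 2 differences had a Pearson correlation of 0.25, against 0.14 across all genes, as a description of probe sets that share their arrays and in part their sequence.

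**Figure D2:**
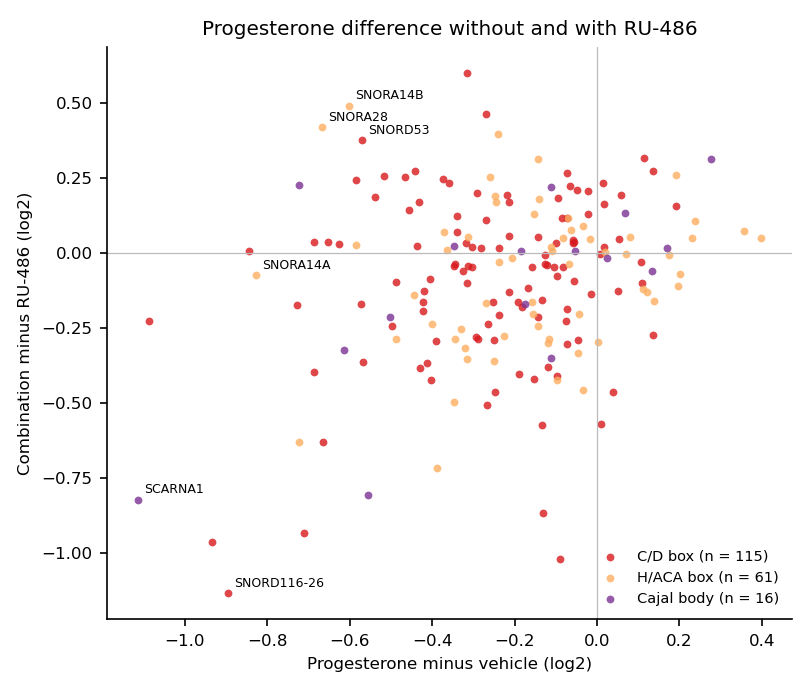
Log2 difference of each of the 192 members for progesterone minus vehicle (x axis) and combination minus RU-486 (y axis), coloured by class. SNORD116-26 and SCARNA1 lie low on both axes, whereas SNORA14B, SNORA28 and SNORD53 lie low on the x axis and high on the y axis.

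Averaged over both settings, 147 of 192 members were lower with progesterone, against 38.8% of all genes, and 50 were lower at an unadjusted limma p under 0.05 (3 were higher), against 1.83% of all genes lower and 3.2% higher. The medians were -0.14 for C/D box, -0.11 for H/ACA box and -0.13 for Cajal body RNAs, against 0.03 for all genes. Without progesterone replicate 1 the C/D box median was -0.09 and the H/ACA box median -0.07. The H/ACA box median was also -0.07 without combination replicate 2, and -0.06 over the 41 members above background. In 29 members all 4 arrays with progesterone lay below all 4 arrays without it (15.1%, against 0.836% of all genes), of which 15 were C/D box, 11 H/ACA box and 3 Cajal body RNAs, and in 0 members did they lie above (2.02% of all genes). Of these 29 members, 23 were above background. Without combination replicate 2 the count was 45, against 2.09% of all genes, and without progesterone replicate 2 it was 35, against 7.91%. Without each of the other 6 arrays in turn it was 31 to 43, against 1.16% to 2.11% of all genes. With all arrays, 23 of the 146 members outside the SNORD113 to SNORD116 families of copies lay below without overlap (15.8%), 9 of them C/D box RNAs.

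**Figure D3:**
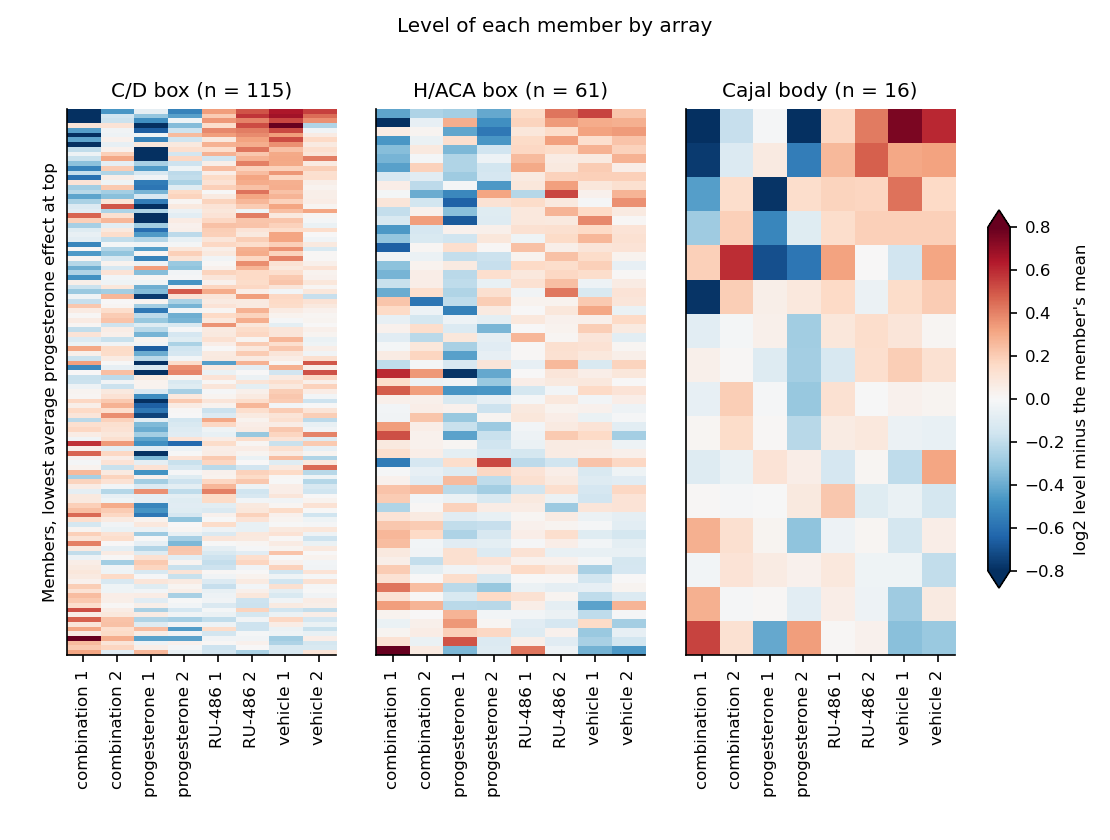
Log2 level of each of the 192 members minus its own mean, on the 8 arrays from combination (left) to vehicle (right), by class and with the lowest average progesterone difference at the top. Blue is below and red above the member's mean, and progesterone replicate 1 is the bluest column in the C/D box panel.

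The C/D box RNA with the lowest average difference was SNORD116-26, whose difference was also the lowest of all 18417 genes. SNORD116 is a family of near-identical copies within SNHG14 in the imprinted region lost in Prader-Willi syndrome, with no established ribosomal target. SNORD116-26 had 6.12 and 6.61 in the combination, 7.01 and 6.54 in progesterone, 7.41 and 7.58 in RU-486, and 7.72 and 7.62 in vehicle. All 4 arrays with progesterone lay below all 4 without, with an average difference of -1.01 ± 0.14 (SE, limma adjusted p 0.722). SNORD116-25 had 5.97 and 6.81 in the combination, 6.66 and 6.53 in progesterone, 7.17 and 7.54 in RU-486, and 7.64 and 7.42 in vehicle, again without overlap (-0.95 ± 0.19, SE).

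All 20 measured SNORD116 copies were lower on average with progesterone, with a median of -0.33. For progesterone against vehicle all 20 were lower, with a median of -0.43, and in 17 (85.0%) the arrays did not overlap, against 15.8% of all genes. Their probe-set means ran between 3.16 (SNORD116-16) and 13.0 (SNORD116-15), with 16 above background. The copies share sequence and 1 host transcript, so they are not separate observations. The SNORD115 copies from the same region lay below background in all 20 cases, at 2.48 to 3.87, with a median average difference of 0.01 and 9 of 20 lower. The 2 SNORD113 and 4 SNORD114 copies from the imprinted region on chromosome 14 were also below background.

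SNORD50A, a C/D box RNA of SNHG5 reported to bind K-Ras, had 9.22 and 9.17 in the combination, 9.28 and 9.20 in progesterone, 9.46 and 9.66 in RU-486, and 9.77 and 9.54 in vehicle. The arrays with progesterone lay below the others in every case (-0.39 ± 0.08, SE). SNORD82, in the nucleolin gene NCL, had 5.00 and 5.78 in the combination, 5.47 and 5.92 in progesterone, 6.30 and 6.35 in RU-486, and 6.49 and 6.32 in vehicle. Its arrays with progesterone were all below background and the others just above it (-0.82 ± 0.18, SE). SNORD116-13 and SNORD116-28, the next in order of p, had averages of -0.65 ± 0.17 and -0.31 ± 0.07 (SE), and the mean of SNORD116-28 was below background.

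Among H/ACA box RNAs, SNORA14A and SNORA14B are near-identical copies in POR and TOMM20, so their probes may share signal. SNORA14A had 9.74 and 9.69 in the combination, 9.26 and 9.10 in progesterone, 9.76 and 9.82 in RU-486, and 10.00 and 10.02 in vehicle, and its progesterone minus vehicle difference was -0.83 ± 0.08 (SE). SNORA14B had 7.63 and 7.48 in the combination, 6.68 and 6.68 in progesterone, 7.01 and 7.13 in RU-486, and 7.30 and 7.26 in vehicle. Progesterone was lowest for both copies, while the combination was the highest group for SNORA14B and lay below vehicle for SNORA14A. The combination minus progesterone difference was 0.88 ± 0.09 for SNORA14B and 0.54 ± 0.08 for SNORA14A (SE), and the interaction of both agents was 1.09 and 0.75, with an adjusted limma p of 0.828. Over all members the interaction was positive in 128 (66.7%, against 52.4% of all genes). It had 21 members higher and 1 lower at an unadjusted limma p under 0.05, against 3.68% of all genes higher and 1.6% lower.

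SNORA41, in EEF1B2, was lower with progesterone in both settings. It had 5.62 and 5.80 in the combination, 5.78 and 5.64 in progesterone, 6.21 and 6.48 in RU-486, and 6.59 and 6.27 in vehicle, again without overlap (-0.68 ± 0.10, SE). Its mean lay below background, as did all 4 arrays with progesterone. SNORA20 in TCP1 (average -0.39 ± 0.10), SNORA46 in CNOT1 (-0.32 ± 0.06), SNORA27 in RPL21 (-0.29 ± 0.09) and SNORA37 in MBD2 (-0.26 ± 0.08, SE each) were also lower on all 4 arrays with progesterone. Of these, SNORA46 had a mean below background. SNORA21, a ribosomal RNA guide in RPL23, averaged -0.55 ± 0.21 (SE) and its arrays overlapped.

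SNORA28 in EIF5 took the other pattern, with 7.06 and 6.81 in the combination, 5.68 and 6.06 in progesterone, 6.47 and 6.56 in RU-486, and 6.52 and 6.55 in vehicle. Its combination minus progesterone difference was 1.07 ± 0.14 (SE, adjusted limma p 0.185). SNORD53 in WDR43 had 8.75 and 8.51 in the combination, 7.68 and 7.55 in progesterone, 8.32 and 8.19 in RU-486, and 7.99 and 8.38 in vehicle (1.02 ± 0.15, SE). Progesterone arrays were lowest and combination arrays highest in both cases. SNORD30 in SNHG1 (1.00 ± 0.19) and SNORA10 in RPS2 (0.60 ± 0.09, SE) had the same order of combination above progesterone.

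In the combination against progesterone, 133 of 192 members (69.3%) were higher, against 56.7% of all genes. The medians were 0.16 for C/D box, 0.08 for H/ACA box and 0.17 for Cajal body RNAs, against 0.03 for all genes. Without progesterone replicate 1 the C/D box median was 0.06, and the Cajal body median was 0.08 without progesterone replicate 2 and 0.03 without combination replicate 2. In 69 members (35.9%) both combination arrays lay above both progesterone arrays, against 28.1% of all genes, and in 16 (8.33%) below, against 12.6%. At an unadjusted limma p under 0.05, 42 members were higher and 5 lower, against 10.1% and 4.5% of all genes. Without progesterone replicate 1, some members passed the adjusted limma threshold, most of them higher, and other genes also passed, most of them lower. That fit rests on a lone progesterone array. For the combination against vehicle, 57 members (29.7%) lay below without overlap, against 18.8% of all genes, and 44 (22.9%) above, against 42.7%. At an unadjusted p under 0.05, 26 were lower and 15 higher, against 6.29% and 6.92% of all genes.

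Of the Cajal body RNAs, SCARNA1 had 4.97 and 5.66 in the combination, 5.84 and 4.98 in progesterone, 6.01 and 6.26 in RU-486, and 6.60 and 6.45 in vehicle, on both sides of background and with no overlap between the 4 arrays with progesterone and the 4 without (-0.97 ± 0.22, SE). SCARNA10 (U85, which guides modification of U5) had 7.69 and 8.35 in the combination, 8.53 and 7.90 in progesterone, 8.71 and 8.93 in RU-486, and 8.76 and 8.78 in vehicle (-0.68 ± 0.18, SE). Both had 2 replicates well apart in progesterone and in the combination. SCARNA4 had 7.93 and 8.33 in the combination, 7.03 and 7.16 in progesterone, 8.06 and 7.74 in RU-486, and 7.59 and 8.06 in vehicle, so only the progesterone arrays lay apart, with a combination minus progesterone difference of 1.03 ± 0.20 (SE).

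Other Cajal body RNAs differed less. SCARNA9, which guides methylation of U2, averaged -0.47 ± 0.22 with progesterone and SCARNA16 -0.17 ± 0.08 (SE). SCARNA7 was higher with progesterone by 0.29 ± 0.17 (SE), the highest average difference of all 192 members. The Cajal body medians depended on single arrays, since the average progesterone median was -0.13 with all arrays -0.0062 without combination replicate 1 and -0.05 without progesterone replicate 2.

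**Figure D4:**
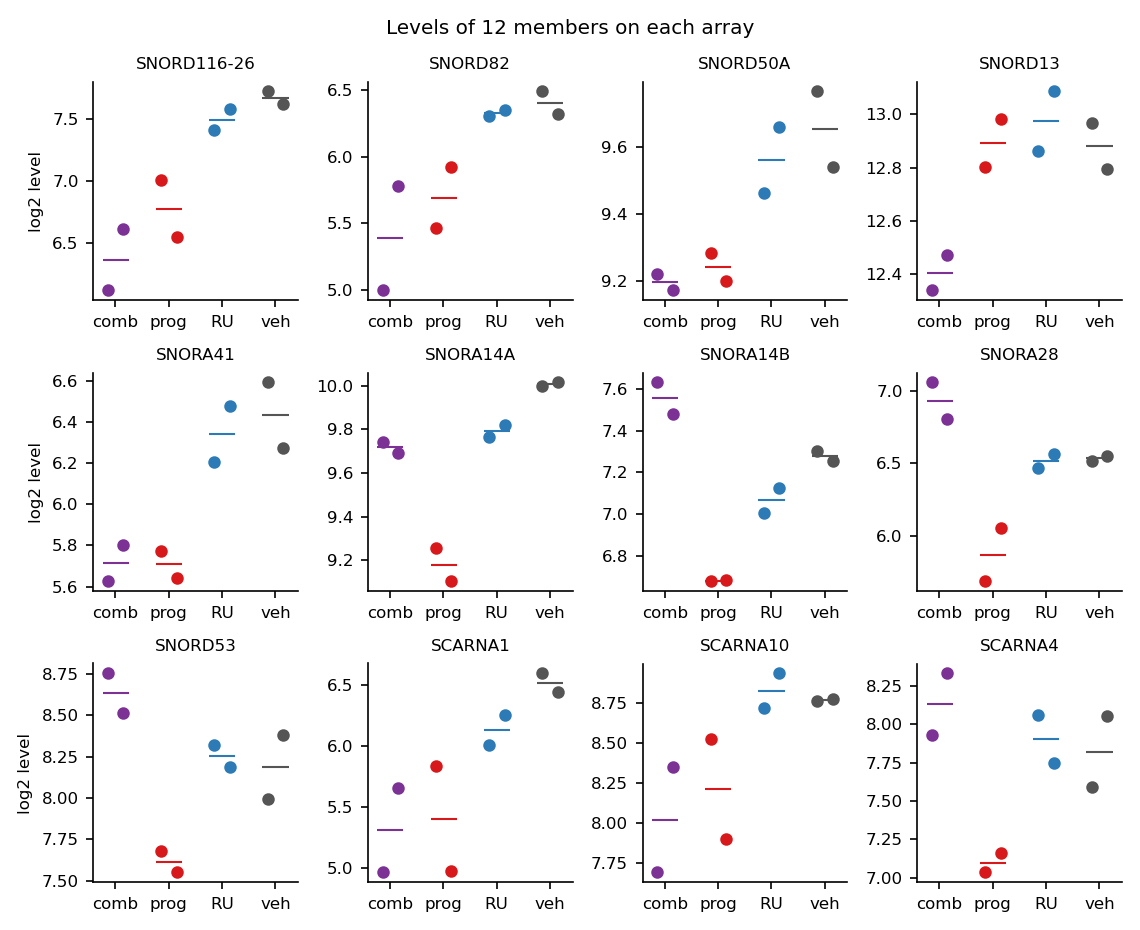
Log2 level of 12 members on each array, with the group mean as a line, groups from combination (left) to vehicle (right). SNORD116-26, SNORD82, SNORD50A, SNORA41, SCARNA1 and SCARNA10 are low in combination and progesterone, SNORA14B, SNORA28, SNORD53 and SCARNA4 are lowest in progesterone and have their highest group mean in the combination, and SNORD13 is low in the combination.

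SNORD13, which guides acetylation of 18S ribosomal RNA, differed in another way. It had 12.34 and 12.47 in the combination, 12.80 and 12.98 in progesterone, 12.86 and 13.09 in RU-486, and 12.97 and 12.80 in vehicle. Only the combination arrays lay apart, below all 6 others. Its pseudogene copy SNORD13P3, which shares sequence, had 12.12 and 12.21 in the combination against 12.82 and 12.59 in vehicle. SNORD44, often used as a reference small RNA and cut from GAS5, had 9.74 and 9.84 in the combination, 9.22 and 9.81 in progesterone, 9.74 and 9.80 in RU-486 and 9.94 and 9.70 in vehicle, and the arrays overlapped.

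Members differed little between RU-486 and vehicle, with medians of 0.03, 0.04 and 0.04 for C/D box, H/ACA box and Cajal body RNAs, against 0.01 for all genes. Of the 192 members 115 (59.9%) were higher, against 55.25% of all genes. Both RU-486 arrays lay above both vehicle arrays in 31 members (16.15%, against 24.0% of all genes), and below them in 26 (13.5%, against 15.7%). At an unadjusted limma p under 0.05, 5 were higher and 6 lower, against 2.15% and 0.95% of all genes. Averaged over both settings of progesterone, the RU-486 medians were 0.09, 0.07 and 0.06, against 0.03, and without progesterone replicate 1 the C/D box median was 0.02. In this average 11 members had all 4 arrays with RU-486 above the other 4 (5.73%, against 4.51% of all genes), and 2 had them below, against 1.09%. At an unadjusted p under 0.05, 30 members were higher and 4 lower, against 6.53% and 4.49% of all genes. The 11 included SNORD14C and SNORD14E, copies of U14 in HSPA8, which is needed for 18S processing in yeast, and SCARNA17. SNORD14C had 11.03 and 10.96 in the combination, 10.58 and 10.68 in progesterone, 11.02 and 11.07 in RU-486, and 10.85 and 10.62 in vehicle. Without progesterone replicate 1, some members passed the adjusted limma threshold for this average, most of them higher, and other genes also passed, most of them lower. A lone progesterone array remains in that fit.

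The genes that enclose the members were compared next, as annotated spans regardless of strand. Of the members, 178 lay in 1 enclosing gene, from 93 distinct genes, and 69 of these genes had a probe set of their own, covering 91 members. The median average progesterone difference of these 91 members was -0.13, against -0.02 for their enclosing genes, and 65 of 91 lay below. Across the 91 members the correlation with the enclosing gene was 0.04, again as a description of pairs in which several members share a host. Of the 69 enclosing genes, 43 (62.3%) were lower in the average progesterone effect, against 38.8% of all genes. In 0 of them did all arrays with progesterone lie below all without, against 0.836% of all genes. For progesterone against vehicle 49 of 69 (71.0%) were lower, against 48.8% of all genes. Both progesterone arrays lay below both vehicle arrays in 31.9% and above in 1.45%, against 15.8% and 16.3% of all genes. NCL had 11.77 and 11.86 in the combination, 11.86 and 11.98 in progesterone, 11.84 and 11.95 in RU-486, and 11.91 and 11.94 in vehicle, and its average difference was -0.04. Within it SNORD82 differed by -0.82, SNORA75 by -0.19 and SNORD20 by -0.13, so members of 1 host spanned a wide range. EEF1B2 differed by 0.02, with SNORA41 at -0.68 and SNORD51 at -0.14, and TCP1, a chaperonin subunit, differed by 0.01, with SNORA20 at -0.39 and SNORA29 at -0.29. EEF1B2 had 9.01 and 8.92 in the combination, 9.14 and 8.49 in progesterone, 8.84 and 8.89 in RU-486, and 8.87 and 8.90 in vehicle. Its progesterone replicates thus lay on both sides of all other arrays. The means of SNORD82 and SNORA41 were below background.

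**Figure D5:**
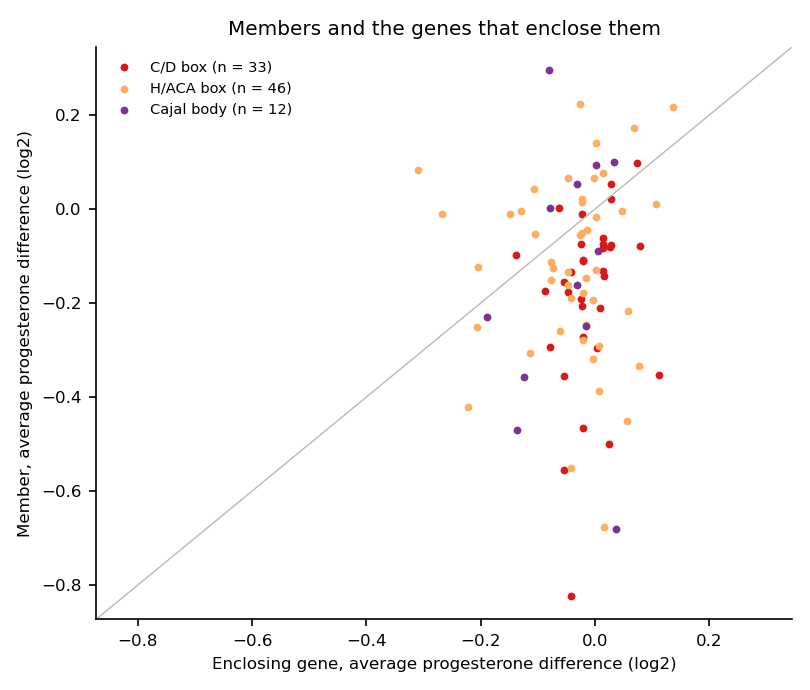
Average progesterone log2 difference of 91 members (y axis) against that of their enclosing gene (x axis), coloured by class, with the line of equality. Of the 91 members 65 lie below the line, the median member minus host difference is -0.09, and the median host value is -0.02.

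Starts of 3 of these hosts are shown because many snoRNA hosts begin with a run of C or T bases, the terminal oligopyrimidine class of start, and the members described above are cut from them. The letters are from RefSeq, build GRCh38.p14, from 80 bases before to 20 bases after the annotated start, with capitals for the longest run of C or T that touches the window of 5 bases before to 10 bases after the start.
EEF1B2, host of SNORA41, chr2:206159815-206159914, plus strand: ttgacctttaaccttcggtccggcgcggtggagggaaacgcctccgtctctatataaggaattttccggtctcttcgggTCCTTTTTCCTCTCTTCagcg
NCL, host of SNORD82, chr2:231464465-231464564, minus strand: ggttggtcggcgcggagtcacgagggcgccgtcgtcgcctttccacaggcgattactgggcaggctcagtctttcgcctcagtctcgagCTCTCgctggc
SNHG5, host of SNORD50A, chr6:85678714-85678813, minus strand: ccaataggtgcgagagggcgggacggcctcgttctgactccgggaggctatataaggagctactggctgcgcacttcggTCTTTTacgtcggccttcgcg
A run of at least 5 C or T bases touching that window was found in 55.1% of 98 annotated starts of 77 hosts and in 40.9% of 35116 annotated starts in all. The runs were 17 bases at the EEF1B2 start shown, 5 in NCL, where the run lies downstream of the start, and 6 in SNHG5. EEF1B2 has 2 annotated starts, and the longest run at the other was 4 bases. They describe the letters of these windows and say nothing of a factor or of the differences above.

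The proteins of the particles were measured beside them, and none passed the adjusted threshold. For the average progesterone effect, FBL differed by -0.01, NOP58 by -0.31, DKC1 by -0.10, NHP2 by -0.01, NOP10 by -0.10 and GAR1 by 0.03, and NOP56 and SNU13 were not measured alone. NOP58 was 9.94 and 10.26 in the combination, 10.52 and 11.08 in progesterone, 10.56 and 10.82 in RU-486, and 10.62 and 11.01 in vehicle, so the combination was lowest. For progesterone against vehicle, 8 of 9 assembly factors (median -0.18) and 7 of 9 processing enzymes (-0.09) were lower, against 48.8% of all genes. So were 8 of 8 U3 particle proteins (-0.06) and 5 of 5 Cajal body and nucleolar proteins (-0.08). In the average effect 7 of 9, 8 of 9, 5 of 8 and 2 of 5 were lower, respectively (38.8% of all genes). For the combination against vehicle, 5 of 9 assembly factors were higher (median 0.02), against 67.5% of all genes (0.07). The lowest of the 9 was RPAP3 (-0.97 ± 0.45, SE, adjusted limma p 0.387). It had 7.80 and 7.92 in the combination, and 8.48 and 9.18 in vehicle. Of the 9 processing enzymes 6 were lower, with a median of -0.48, against 32.5% of all genes lower. The lowest was XRN1, a 5′ exonuclease (-0.99 ± 0.36, SE, adjusted limma p 0.374). It had 7.97 and 8.13 in the combination, and 8.68 and 9.38 in vehicle. Of the 8 proteins of the U3 particle 5 were higher, with a median of 0.08. Of the 5 Cajal body and nucleolar proteins 4 were higher, with a median of 0.11. Both counts stand against 67.5% of all genes higher.

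Short RNAs of other kinds were also lower with progesterone in part, and their part in the shift was not tested. The 23 genes whose symbols begin with RNU or RNVU, mostly spliceosomal RNAs, had a median average progesterone difference of -0.26, 20 of 23 were lower, and in 34.8% the 4 arrays with progesterone lay below the other 4, against 0.836% of all genes. The 4 Y and vault RNA genes had a median of -0.43, with 3 lower, and the 189 microRNA genes 0.04. The 361 olfactory receptor genes had 0.06. RNA quality and the yield of short RNAs were not measured on these arrays.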

How the data were processed

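The values are log2 expression levels deposited by the authors. They were made by RMA with the R packages oligo and limma, per the submitters' processing notes, which give no versions or parameters. Per the labels, total RNA was extracted with Trizol and labelled for the whole-transcript array. RMA brings all arrays to 1 distribution, so an array-wide shift is not visible, and intensities cannot be read as amounts.

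Of 33297 probe sets, 19460 had 1 symbol in the platform annotation, 1754 several and 12083 none listed. The highest-mean probe set stood for each of 18417 genes. limma 3.58.1 (R 4.3.3) fitted 4 group means with a shared spread (4 residual degrees of freedom), tested on simulated data, with Benjamini-Hochberg adjustment over all genes. The average effects and the interaction are contrasts of these means. pandas 2.3.3 made the tables. The members and lists were chosen with earlier results of these data known.

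Named members were those with the smallest p in each class (6 for the average progesterone effect, 3 elsewhere), the 5 highest means in each class, and a fixed list of 16 symbols, of which 8 were measured alone; other members named in a count were chosen after their values were seen. Host spans came from RefSeq without strand. The member RNAs' own sequences were not used here. Alternatives were the replicate block, each array left out, quantile normalization and centring, dim genes left out, the mean of a gene's probe sets, array weights and a prior variance with trend. Replicates are biological per the labels. The number of arrays limits the precision.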

Additional observations from a re-analysis of the deposited data

How the results depend on the processing

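Settings other than leaving out an array gave 0 members past the adjusted limma threshold in all 8 comparisons: quantile normalization once more, centring, dim genes left out, the mean of a gene's probe sets, array weights, a prior variance with trend, and, chosen after seeing the data, leaving out progesterone replicate 1 with combination replicate 1. Leaving out single arrays gave 0 to 29 members for progesterone against vehicle, 0 to 13 for the combination against progesterone and 0 to 6 for RU-486 averaged over both settings. The other 5 comparisons had 0. The counts above 0 came without progesterone replicate 2 (29) and without progesterone replicate 1 (13 and 6). Other genes also passed in each of these fits, so the counts alone do not set the members apart from all genes. Each such fit rests on a lone progesterone array. The cause of the counts was not tested. Of 384 class medians under alternatives, 380 moved by less than the spread between replicates, 21 had the opposite sign, and 1269 of 1280 values of named members kept their direction and side of the threshold, while 11 passed it in the same direction. The Cajal body medians ranged between -0.18 and -0.0062 for the average progesterone effect, between 0.0281 and 0.1766 for the combination against progesterone, and between -0.0208 and 0.1866 for the interaction when single arrays were left out. The interaction median was 0.24 with progesterone replicate 1 and combination replicate 1 both left out. Without 1 array, 31 to 45 members had no overlap for the average progesterone effect, against 1.16% to 7.91% of all genes, and 12 to 23 for the average RU-486 effect, against 5.09% to 13.5% of all genes (13 members against 13.5% without progesterone replicate 1), the highest counts coming without combination replicate 2 and vehicle replicate 1 (17 without vehicle replicate 2). The fit with the replicate number as a block gave 0 members in every comparison, with a smallest adjusted p of 0.562 for progesterone against vehicle. Same-numbered arrays correlated by 0.20 to 0.51 in their deviations over all genes, positively in every pair of groups. Over the members the correlations were -0.16 to 0.22. The labels give no pairing and there are 2 numbers only, so the main fit is unpaired. A batch shared by number was not tested. The 2 arrays per group limit all of these values.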

Other observations

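The probe sets that carry several symbols were left out of the members. In 23 of them all symbols are SNORD, SNORA or SCARNA, and 21 of these were lower for the average progesterone effect, with a median log2 difference of -0.12. In 53 the other symbol is a host or other gene, and 39 were lower, with a median of -0.13. None passed the adjusted limma threshold.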
